A study of Mus musculus with 6 samples.

Results

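The histone genes of mouse LSK cells were compared between mice with a deletion of Ctcf and WT mice. The members were every gene whose symbol starts with Hist1h, Hist2h, Hist3h, Hist4h, H2af, H3f or H1f. The platform annotation gives most histone genes under newer symbols, so the rule was applied to the current and the older symbols of the RefSeq gene table. RefSeq held 93 such genes, of which 67 were clustered histone genes, 18 variant genes and 8 pseudogenes. Of these, 43 had a probe set of their own on the array and were measured gene by gene, among 22180 genes in all. They comprised 28 clustered genes, 12 variants and 3 pseudogenes. A further 42 members were covered only by probe sets that carry the symbols of several genes, and 8 had no probe set in the annotation used here. Only 9 of the 43 measured members met the rule by their current symbol, and 34 met it by an older one.

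LSK cells, the lineage-negative Sca-1+ c-Kit high fraction of bone marrow that holds blood stem cells and early multipotent progenitors, were sorted from 8-week-old male mice. The cKO group was 3 biological replicates of tamoxifen-inducible Ctcf conditional knockout mice, and the WT group was 3 biological replicates. All mice received 2 mg of tamoxifen daily for 3 days, and cells were taken 24 hours after the last injection. CreER, the recombinase that tamoxifen activates, appears in the design text beside the conditional knockout, but the control genotype reads WT, which leaves its presence in the controls unclear. The sources used here do not say what drives the recombinase, which part of Ctcf is deleted or whether animals were pooled.

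Histones H2A, H2B, H3 and H4 form the core around which DNA is wrapped, and the linker histone H1 binds where DNA enters and leaves it. The clustered genes are replication-dependent: they lack introns, their transcripts end in a stem-loop instead of a poly(A) tail, and they are made mainly in S phase, when new chromatin is assembled. Variant histones come mostly from solitary genes whose transcripts carry poly(A) tails and are made through the cell cycle. CTCF, whose gene was deleted, is a zinc finger protein of insulators and loop anchors, sites that separate or join stretches of chromatin.

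Promoter windows of 300 bases, 250 before to 50 after the RefSeq start, were available for 37 of the 43 measured members. Those of the member with the largest difference in H1, H2A, H2B and H4 are shown, with H2bc12 as an example of an octamer and H2az1 as a variant, both chosen after their values were seen. Sequences and coordinates are from RefSeq, GRCm38.p6, written 5′ to 3′ along the gene, and capitals mark the letters searched, on either strand.
H1f5, chr13:21780576-21780875, minus strand: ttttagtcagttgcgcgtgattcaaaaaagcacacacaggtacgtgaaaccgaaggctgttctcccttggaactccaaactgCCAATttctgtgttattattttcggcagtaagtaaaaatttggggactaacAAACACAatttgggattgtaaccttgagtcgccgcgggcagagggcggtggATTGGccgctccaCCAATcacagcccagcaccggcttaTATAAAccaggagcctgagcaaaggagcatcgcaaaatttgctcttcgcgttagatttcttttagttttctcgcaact
H2ac21, chr3:96219635-96219934, plus strand: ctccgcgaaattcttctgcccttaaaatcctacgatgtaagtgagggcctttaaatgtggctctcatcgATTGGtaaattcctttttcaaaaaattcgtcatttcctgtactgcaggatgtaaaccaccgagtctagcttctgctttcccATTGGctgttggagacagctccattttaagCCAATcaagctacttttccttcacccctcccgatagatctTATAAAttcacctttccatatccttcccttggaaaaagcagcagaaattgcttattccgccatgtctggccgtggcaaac
H2bc9, chr13:23543395-23543694, minus strand: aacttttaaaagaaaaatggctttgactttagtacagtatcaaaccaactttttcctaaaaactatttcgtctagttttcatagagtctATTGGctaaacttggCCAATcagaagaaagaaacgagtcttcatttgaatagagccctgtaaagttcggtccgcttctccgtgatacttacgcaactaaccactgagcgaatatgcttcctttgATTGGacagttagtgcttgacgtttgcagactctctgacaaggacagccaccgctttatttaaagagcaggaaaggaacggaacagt
H2bc12, chr13:22035571-22035870, plus strand: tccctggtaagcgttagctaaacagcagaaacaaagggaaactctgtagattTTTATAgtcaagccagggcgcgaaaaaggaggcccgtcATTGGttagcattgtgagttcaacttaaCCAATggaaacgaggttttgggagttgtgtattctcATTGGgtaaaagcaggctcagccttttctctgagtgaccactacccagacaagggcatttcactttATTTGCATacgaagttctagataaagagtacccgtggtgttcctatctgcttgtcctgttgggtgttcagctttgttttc
H4c17, chr13:21811496-21811795, plus strand: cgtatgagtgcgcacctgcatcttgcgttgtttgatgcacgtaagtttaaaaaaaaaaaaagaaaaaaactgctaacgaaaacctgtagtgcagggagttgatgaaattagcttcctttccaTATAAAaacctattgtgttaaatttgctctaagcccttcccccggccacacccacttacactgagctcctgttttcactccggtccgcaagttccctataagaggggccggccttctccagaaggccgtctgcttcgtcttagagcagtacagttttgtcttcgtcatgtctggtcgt
H2az1, chr3:137864237-137864536, plus strand: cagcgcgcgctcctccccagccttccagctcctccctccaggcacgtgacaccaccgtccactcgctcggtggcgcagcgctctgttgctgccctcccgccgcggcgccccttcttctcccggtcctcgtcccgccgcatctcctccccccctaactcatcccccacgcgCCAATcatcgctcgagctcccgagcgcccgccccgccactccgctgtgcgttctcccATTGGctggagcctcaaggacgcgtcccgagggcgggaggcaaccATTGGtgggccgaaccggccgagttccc

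The letters searched on both strands were TATAAA (the letters of the TATA box), CCAAT (the site of the factor NF-Y), ATTTGCAT (the octamer bound by POU factors), AAACACA (the H1 box) and AGGGGGC (a common form of the core of the CTCF motif). CCAAT was in 85.7% of the 63 windows of clustered genes and in 37.4% of all 32851 windows, and TATAAA was in 55.6% and 13.6% of them. The octamer was in 22.2% of clustered windows against 1.74% of all windows, and it lay in 7 of 17 H2B windows and 7 of 18 H2A windows. AAACACA was in 5 of 6 clustered H1 windows, against 7.18% of all windows. Among H4 windows 3 of 12 held CCAAT, and the H4c17 window above holds TATAAA but no CCAAT. The CTCF letters were in 3.17% of clustered windows, against 10.6% of all windows, and in 1 of the 26 windows of measured clustered genes, that of H1f1. Of the 11 windows of measured variants, 7 held CCAAT and 0 held TATAAA or the octamer, as the H2az1 window shows. These matches are letters in a window and not measured binding. No position in the window was required, so a TATAAA match need not be a TATA box by place. Relative to the start, it began at -28 in H1f5 and -30 in H2ac21. It began at -128 in H4c17 and, on the opposite strand, at -198 in H2bc12.

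Values are log2 levels as deposited, differences are cKO minus WT on that scale, and a level is not compared between genes. Ctcf itself had 7.58, 7.78 and 7.86 in cKO cells, against 8.35, 8.59 and 8.73 in WT cells. All cKO arrays lay below all WT arrays, with a difference of -0.82 (SE 0.13), which did not pass at the threshold of 0.05 over all genes (limma adjusted p = 0.104). A two-sided exact permutation test gave p = 0.1, and 3 against 3 arrays cannot go lower. Over all genes limma called 16 at an adjusted p under 0.05, 6 higher and 10 lower in cKO cells. Array medians lay between 5.99 and 6.07, and arrays correlated at 0.979 to 0.989. Of 13 LSK markers 11 were measured, all above the median of all genes' means. Their mean levels were 9.11 to 9.18 in cKO cells and 9.17 to 9.28 in WT cells, highest on WT replicate 2. Of the 11, 3 had positive differences, with a median of -0.04 and 0 called. Kit had 10.13, 10.12 and 10.21 in cKO cells, against 10.26, 10.65 and 10.22 in WT cells. Its difference was -0.22 (SE 0.13, limma adjusted p = 0.727), and -0.09 without WT replicate 2. WT replicate 2 stood apart for many histone genes, and the values without it are given beside the differences it moves most. In sorted cells measured in bulk, fewer cells in a cycle stage and less RNA per cell cannot be told apart.

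More clustered histone genes had positive than negative differences, but none of them passed the test over all genes. By array, the median of their deviations from their own means was 0.377, 0.04 and 0.017 in cKO cells. It was 0.059, -0.337 and -0.007 in WT cells, so WT replicate 1 lay above cKO replicates 2 and 3. Of 28 measured, 22 were positive and 6 negative, with a median difference of 0.32 and a range of -0.26 to 0.77. Over all genes 54.7% were positive and the median was 0.02. None of the 28 was called by limma, where 0.0721% of all genes were called (0.0271% higher and 0.0451% lower), and the lowest adjusted p was 0.365. At an unadjusted p under 0.05, 4 clustered genes were higher and 0 lower in cKO cells, against 5.03% and 3.08% of all genes. Groups that did not overlap were found for 1 clustered gene higher in cKO cells and 1 lower, against 7.96% and 5.32% of all genes, so the share of genes with separate groups was not above the background. The 12 variants had a median of 0.04, with 7 positive, 0 called and 0 below an unadjusted p of 0.05. Their median was 0.03 without WT replicate 2 and 0.01 without cKO replicate 1, and it turned to -0.01, with 6 of 12 positive, when arrays were centred on the brighter genes.

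Both extremes of the clustered genes gathered on single arrays. WT replicate 2 had the lowest value of the 6 arrays for 15 of the 28 clustered genes, 53.6% against 23.0% of all genes, and cKO replicate 1 had the highest for 18, 64.3% against 20.5% of all genes. Without WT replicate 2 the median of the clustered genes was 0.11, with 19 of 28 positive, with 1 gene higher and 0 lower at an unadjusted p under 0.05, against 3.26% and 2.97% of all genes. Without cKO replicate 1 the median was 0.18. Among the 18 clustered genes brighter than the median of all genes' means, 6.29, the median difference was 0.44 with all arrays and 0.15 without WT replicate 2, and 13 of them were lowest on that array. The 10 dimmer genes had a median of 0.13 with all arrays, 0.0059 without WT replicate 2 and -0.026 without cKO replicate 1, with 5 of 10 positive in both cases.

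**Figure D1:**
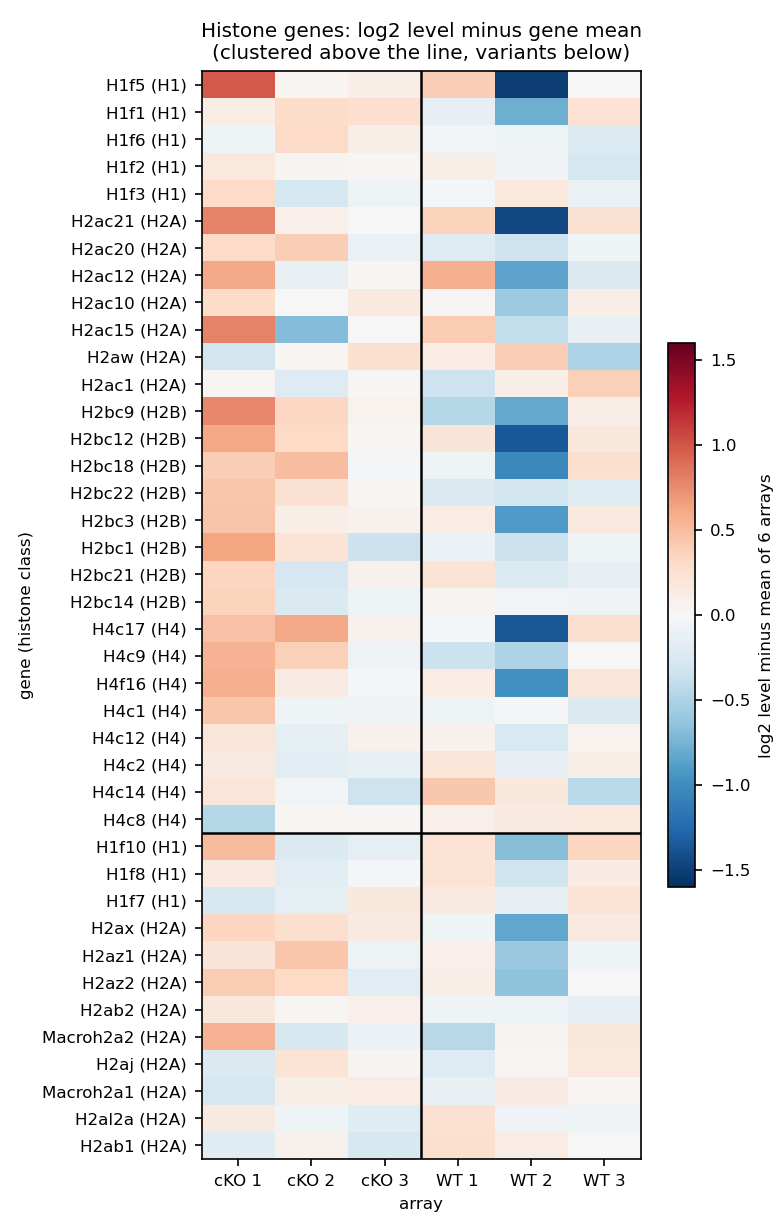
Log2 level of each clustered histone gene (above the line) and variant (below it), minus the gene's mean over the 6 arrays, in colour, with arrays in columns, cKO left of WT. The cKO 1 column is the highest for 18 of 28 clustered genes and the WT 2 column the lowest for 15 of 28.

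The clustered linker histones bind DNA between nucleosomes and help compact chromatin. H1f5 had 10.79, 9.83 and 9.91 in cKO cells, against 10.19, 8.29 and 9.80 in WT cells. Replicate 1 of the cKO group was the highest and replicate 2 of the WT group was lower than all others by over 1 unit, so the groups overlapped. The difference was 0.75 (SE 0.46, limma adjusted p = 0.733), and 0.18 without WT replicate 2. H1f1 had 8.16, 8.33 and 8.32 in cKO cells, against 7.91, 7.27 and 8.28 in WT cells, a difference of 0.45 (SE 0.23, limma adjusted p = 0.659), and 0.17 without WT replicate 2. Its WT replicate 3 lay within the cKO values. H1f2, the brightest clustered linker gene by its own probe set, had 10.16, 10.03 and 10.01 in cKO cells and 10.09, 9.94 and 9.70 in WT cells, with a difference of 0.16 that was 0.17 without WT replicate 2. The other members were H1f3, at -0.03 (0.04 without WT replicate 2), and the testis-specific H1f6, at 0.23. For the 5 linker genes the median was 0.23, and 0.17 without WT replicate 2.

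Among clustered H2A genes 5 of 7 were positive, with a median of 0.30. H2ac21 had 10.26, 9.55 and 9.46 in cKO cells, against 9.83, 8.01 and 9.71 in WT cells. Only WT replicate 2 was below the cKO values, and the other WT arrays lay between them. The difference of 0.57 (SE 0.45, limma adjusted p = 0.807) became -0.01 without that array, and a dimmer second probe set of the same gene gave 0.22 with all arrays and 0.04 without it. H2ac20 had 7.43, 7.51 and 7.02 in cKO cells, against 6.92, 6.78 and 7.06 in WT cells. Here cKO replicate 3 overlapped WT replicate 3, and the difference was 0.40 (SE 0.15, limma adjusted p = 0.558), or 0.33 without WT replicate 2. H2ac10, the brightest H2A gene by its own probe set, had 12.38, 12.09 and 12.25 in cKO cells and 12.11, 11.51 and 12.20 in WT cells, a difference of 0.30 (SE 0.19) that was 0.08 without WT replicate 2. Without WT replicate 2 the H2A median was -0.0063, with 3 of 7 positive, and without cKO replicate 1 it was 0.14.

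Every one of the 8 clustered H2B genes was positive, and their median was 0.45 (0.16 without WT replicate 2, with 7 of 8 positive). Without cKO replicate 1, the highest array for 7 of the 8, the median was 0.34, with 6 of 8 positive. H2bc9 had 8.40, 7.96 and 7.68 in cKO cells, against 7.18, 6.82 and 7.74 in WT cells. The groups overlapped by cKO replicate 3 and WT replicate 3 alone, and both other WT arrays were below every cKO array. Its difference of 0.77 (SE 0.25, 1.71-fold, limma adjusted p = 0.490) was the largest of the clustered genes and was 0.56 without WT replicate 2. H2bc12 had 9.93, 9.64 and 9.35 in cKO cells, against 9.52, 7.96 and 9.50 in WT cells, a difference of 0.65 that was 0.13 without WT replicate 2. H2bc18 had 9.07, 9.17 and 8.65 in cKO cells, against 8.61, 7.64 and 8.94 in WT cells, a difference of 0.56 that was 0.19 without it. In both genes WT replicate 2 was the lowest array and WT replicate 3 lay within the cKO values. H2bc3, the brightest H2B gene by its own probe set, differed by 0.43 (SE 0.27), and by 0.08 without that array.

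H2bc22, chosen after its values were seen, was the only clustered gene with all cKO arrays above all WT arrays. It had 5.71, 5.52 and 5.30 in cKO cells, against 5.04, 4.97 and 5.08 in WT cells, below the median of all genes' means. The WT values lay within 0.11 of each other. Its difference was 0.48 (SE 0.13, limma adjusted p = 0.365), and 0.45 without WT replicate 2. The H2bc9 and H2bc22 windows hold no octamer, whereas those of H2bc12, H2bc18, H2bc3, H2bc1 and H2bc14 do. H2bc1 differed by 0.34 (0.25 without WT replicate 2) and H2bc14 by 0.03 (0.02 without it). A link between the octamer and the differences was not tested.

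Of 8 clustered H4 genes 5 were positive, with a median of 0.15 (0.02 without WT replicate 2 and 0.03 without cKO replicate 1). H4c17 had 9.99, 10.12 and 9.58 in cKO cells, against 9.48, 8.14 and 9.77 in WT cells. WT replicate 3 lay among the cKO values, and WT replicate 2 was the lowest by more than 1 unit. The difference was 0.76 (SE 0.37, limma adjusted p = 0.651), and 0.27 without WT replicate 2. H4c9 had 7.52, 7.36 and 6.89 in cKO cells, against 6.62, 6.47 and 6.96 in WT cells. Both higher cKO arrays were above all WT arrays, and the difference of 0.57 (SE 0.19, limma adjusted p = 0.499) was 0.47 without WT replicate 2. H4f16 differed by 0.45 (SE 0.30) on its brighter probe set and by -0.02 on its second. Without WT replicate 2 these were 0.07 and 0.0027, so both the difference and the disagreement between its probe sets rested on that array. H4c12, the brightest H4 gene by its own probe set, had 13.41, 13.07 and 13.29 in cKO cells and 13.29, 12.98 and 13.28 in WT cells, a difference of 0.07 (SE 0.13) that was -0.03 without WT replicate 2. H4c8, chosen after its values were seen, was the only clustered gene with all cKO arrays below all WT arrays, at 2.33, 2.82 and 2.80 in cKO cells against 2.87, 2.93 and 2.96 in WT cells, below the median of all genes' means.

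**Figure D2:**
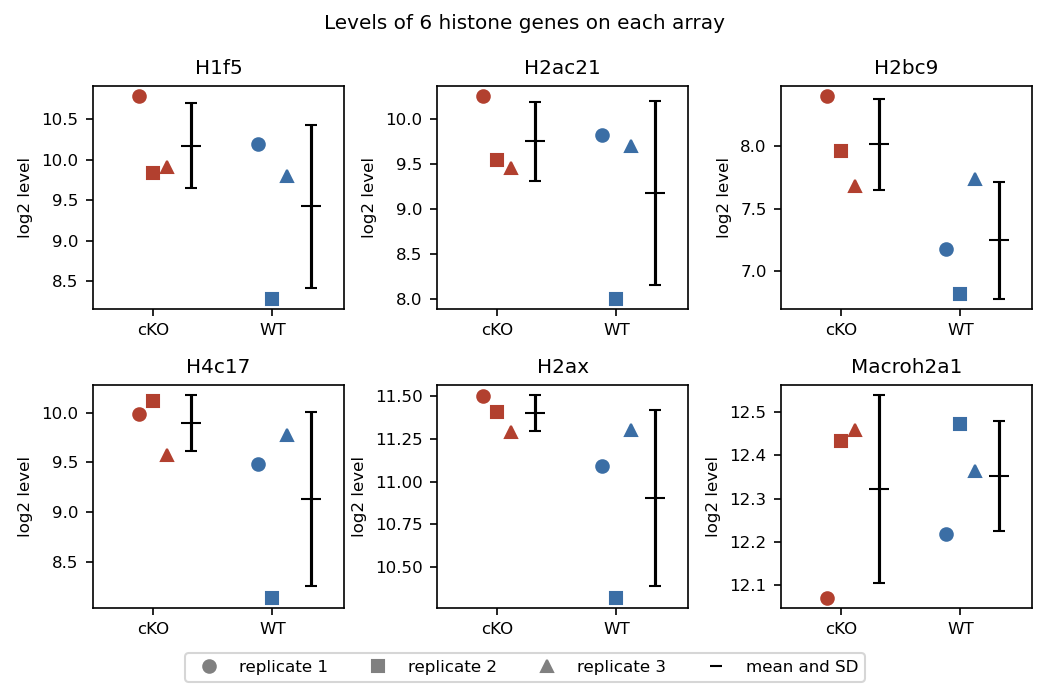
Log2 level on each array for H1f5, H2ac21, H2bc9, H4c17, H2ax and Macroh2a1, with cKO left of WT, a marker shape per replicate, and the mean and SD of 3 arrays as black bars. WT replicate 2 is the lowest array for the first 5 genes and the highest for Macroh2a1.

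No H3 gene, clustered or variant, had a probe set of its own, so H3 was seen only through probe sets shared by several genes, which are described by class. The array carried 47 shared histone probe sets, 44 after those with identical values were counted once, with up to 13 symbols each. Of 34 shared by clustered genes 28 were positive, with a median of 0.18, or 0.14 without WT replicate 2. By array, the median of their deviations from their own means was 0.347, -0.017 and 0.01 in cKO cells. It was -0.044, -0.131 and -0.145 in WT cells, so cKO replicate 1 stood furthest out. Medians without cKO replicate 1 were not computed for shared sets. None of the 34 was called over all probe sets, of which 0.00726% were. Groups did not overlap for 5 of the 34, all higher in cKO cells, against 6.01% of all probe sets higher and 5.53% lower. These sets overlap in the genes they cover and are not independent.

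Of 12 H3 probe sets 11 were positive, with a median of 0.21 (0.17 without WT replicate 2). One shared by 8 H3 genes had 5.50, 5.01 and 4.73 in cKO cells, against 4.22, 3.95 and 4.42 in WT cells. All cKO arrays were above all WT arrays, by 0.88 (SE 0.22, limma adjusted p = 0.712), and by 0.76 without WT replicate 2. This set was dim, with a mean level of 4.64, below the 6.29 that divides brighter from dimmer genes. Only 6 of the 12 H3 sets exceeded 6.29. The only other H3 set with separate groups, higher in cKO cells by 0.44, was dimmer still, at 2.86. Another H3 set of 8 symbols went the other way, at 5.98, 6.64 and 6.39 in cKO cells against 6.66, 7.64 and 6.35 in WT cells, with WT replicate 2 the highest array. The difference there was -0.55 (SE 0.35), and -0.17 without that array.

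Among 9 shared H2A probe sets 8 were positive, with a median of 0.36. Without WT replicate 2 all 9 were positive, with a median of 0.40, unlike the H2A genes with their own probe sets. The largest difference of any histone probe set was on a set of 10 H2A symbols, which had 7.62, 7.65 and 7.23 in cKO cells, against 6.42, 6.23 and 6.84 in WT cells. The groups were apart, with a difference of 1.00 (SE 0.20, limma adjusted p = 0.548) that was 0.87 without WT replicate 2. A set of 3 H2A symbols had 13.70, 13.48 and 13.55 in cKO cells, against 13.27, 12.83 and 13.22 in WT cells. It was also apart, by 0.47 (SE 0.15, limma adjusted p = 0.781), and by 0.34 without WT replicate 2. The 7 shared H2B sets had a median of 0.11, and the 5 shared H4 sets a median of -0.01. Without WT replicate 2 these were 0.10 and 0.01. The median deviation of the H2A sets was 0.619, -0.014 and 0.016 on cKO replicates 1, 2 and 3. That of the H2B sets was 0.342, -0.192 and 0.079. WT replicate 2 was the lowest array on 15 of the 34 clustered sets and the highest on 5, and cKO replicate 1 was the highest on 25. On a set of 3 H2B symbols WT replicate 2 stood highest, at 9.42, 9.42 and 9.82 in cKO cells against 9.43, 10.63 and 8.89 in WT cells, so that array was not low on every histone probe set.

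**Figure D3:**
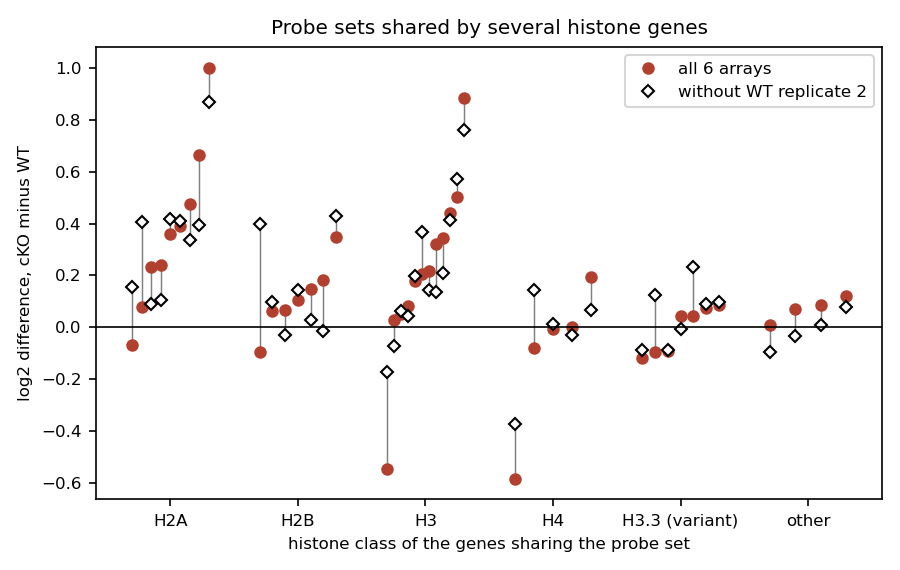
Log2 difference, cKO minus WT, of each of 44 probe sets shared by several genes, by histone class; filled circles use all 6 arrays and open diamonds leave out WT replicate 2, joined by a line. Of 12 H3 sets 11 are above 0, and the highest H2A set is at 1.00.

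Histone variants replace the clustered forms at particular places in chromatin. H2ax, whose product is phosphorylated at DNA breaks, had 11.50, 11.41 and 11.29 in cKO cells, against 11.09, 10.32 and 11.30 in WT cells. WT replicate 3 overlapped the lowest cKO array, and the difference was 0.50 (SE 0.23, limma adjusted p = 0.632), or 0.20 without WT replicate 2. H2ax transcripts are known to exist in forms with and without a poly(A) tail, which sets this gene between the clustered genes and the variants. The H2A.Z genes, whose product is found at promoters, had the next largest positive differences. H2az1 had 6.73, 6.98 and 6.45 in cKO cells, against 6.61, 5.94 and 6.46 in WT cells, a difference of 0.38 (SE 0.20). H2az2 had 10.06, 9.98 and 9.50 in cKO cells, against 9.77, 9.02 and 9.66 in WT cells, a difference of 0.37 (SE 0.22). Both had their lowest value on WT replicate 2 and overlapping groups, and their differences were 0.18 and 0.13 without it.

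Macroh2a1, a large H2A variant of silent chromatin, had 12.07, 12.43 and 12.46 in cKO cells, against 12.22, 12.47 and 12.37 in WT cells, a difference of -0.03 (SE 0.14). H2aj differed by 0.02 (SE 0.15). The linker variant H1f10 had 9.29, 8.55 and 8.62 in cKO cells, against 9.02, 8.10 and 9.12 in WT cells, a difference of 0.07 that was -0.25 without WT replicate 2. In these 3 genes the groups overlapped throughout. Of the 12 variants, 1 had all cKO arrays above all WT arrays and 0 had all below, against 7.96% and 5.32% of all genes. This was H2ab2, a short H2A variant of the testis, at 6.86, 6.70 and 6.76 in cKO cells against 6.62, 6.60 and 6.55 in WT cells, by 0.18 (SE 0.10, limma adjusted p = 0.702). Its relative H2ab1 differed by -0.25 (SE 0.13) on its brighter probe set and by -0.01 on its second, and H2al2a by -0.08. The 3 dimmer variants ranged from -0.16 to 0.14. Over the 8 measured testis or oocyte forms, clustered and variant, the median difference was -0.05, with 3 positive, and -0.11 without WT replicate 2. H3f3a and H3f3b, which encode the replacement histone H3.3, were covered only by shared sets; the 7 H3.3 sets had a median of 0.04, or 0.09 without WT replicate 2, and a range of -0.12 to 0.08. The 3 pseudogenes were all positive with all arrays, with a median of 0.21. Without cKO replicate 1 their median was -0.08, with 1 of 3 positive, and without WT replicate 2 it was 0.15, with 2 of 3 positive.

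**Figure D4:**
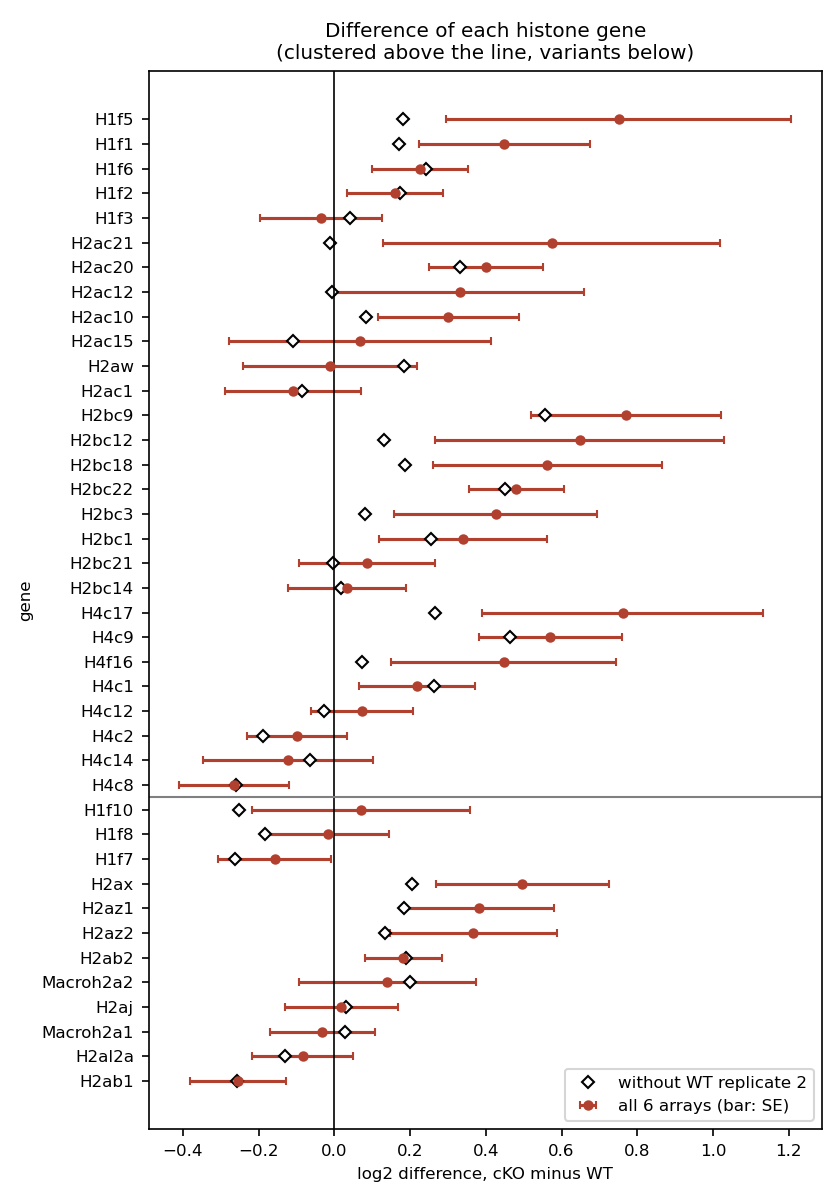
Log2 difference, cKO minus WT, of each clustered histone gene (above the line) and variant (below it); circles with SE bars use all 6 arrays and open diamonds leave out WT replicate 2. All 8 H2B genes are above 0 with all arrays, and the clustered median is 0.32 with WT replicate 2 and 0.11 without it.

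The clustered genes were also described by place. The 21 measured genes of the large Hist1 cluster on chromosome 13 had a median of 0.30, with 17 positive, and the 5 of the Hist2 cluster on chromosome 3 had a median of 0.40, with 4 positive. Without WT replicate 2 these medians were 0.13 and -0.0025, and without cKO replicate 1 they were 0.11 and 0.32. The RefSeq positions split the Hist1 genes into 3 blocks at gaps of over 200000 bases, with 6 of 6, 3 of 3 and 8 of 12 measured genes positive and medians of 0.28, 0.57 and 0.22. Without WT replicate 2 the block medians were 0.0995, 0.13 and 0.13, so the difference between blocks rested on that array. Within the blocks, neighbours in gene order could lie far apart in difference, such as H4c8 at -0.26 beside H2ac10 at 0.30 (-0.26 and 0.08 without WT replicate 2). The divergent pair H2bc12 and H2ac12 share 277 bases of their promoter windows and differed by 0.65 and 0.33, but by 0.13 and -0.0063 without WT replicate 2. The testis pair H2ac1 and H2bc1 share 220 bases and differed by -0.11 and 0.34, and by -0.08 and 0.25 without it. Each of these contrasts includes a very dim gene, as H4c8, H2ac12 and H2bc1 had mean levels of 2.785, 2.782 and 2.605. H2ac1, at 5.87, was also below the median of all genes' means, 6.29.

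Genes that act on histone transcripts were mostly positive too. Of 29 measured genes of histone mRNA biogenesis 23 were positive (79.3%, against 54.7% of all genes), with a median of 0.12. Of these 29, 0 were called, against 0.0721% of all genes. The median was 0.07 without either WT replicate 1 or WT replicate 2, 0.08 without cKO replicate 2, and 0.06 with 18 of 29 positive when arrays were centred on the brighter genes. Groups did not overlap for 4, all higher in cKO cells, against 7.96% of all genes higher and 5.32% lower. Eri1, Casp8ap2 and Mif4gd were named for the lowest limma p of the list. Slbp, which binds the stem-loop, had 9.141, 9.001 and 8.941 in cKO cells, against 9.014, 8.351 and 8.981 in WT cells, a difference of 0.25 (SE 0.18) that was 0.03 without WT replicate 2. Npat, the activator of histone transcription, had 8.97, 9.02 and 9.04 in cKO cells, against 8.72, 8.82 and 8.92 in WT cells. Here the groups were apart, by 0.19 (SE 0.10, limma adjusted p = 0.702). Eri1, the exonuclease that trims and degrades histone transcripts, was apart by 0.49 (SE 0.16, limma adjusted p = 0.488), and by 0.31 without WT replicate 2. Casp8ap2, which works with Npat at histone locus bodies, differed by 0.39 (SE 0.14), and Mif4gd, a translation partner of Slbp, by 0.30 (SE 0.11).

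Of 33 measured histone chaperone and deposition genes 21 were positive (63.6%, against 54.7% of all genes) and 12 negative, down to -0.24. Their median was 0.11, with 0 called, against 0.0721% of all genes. This median was 0.05 without WT replicate 1, 0.06 without cKO replicate 2 and 0.21 without cKO replicate 1 or WT replicate 3, and 0.05 with 19 of 33 positive under that centring. Groups did not overlap for 6 higher in cKO cells and 1 lower, against 7.96% and 5.32% of all genes. The genes named next had the lowest limma p of the list. Asf1b, the chaperone of newly made H3 and H4 in dividing cells, had 9.85, 10.07 and 9.50 in cKO cells, against 9.16, 8.02 and 9.29 in WT cells. All cKO arrays were higher, by 0.99 (SE 0.31, limma adjusted p = 0.477), and by 0.59 without WT replicate 2. Chaf1a, the large subunit of the chromatin assembly factor that follows the replication fork, was apart by 0.55 (SE 0.20, limma adjusted p = 0.533), or 0.34 without WT replicate 2, and Rbbp7, which binds histone H4, by 0.28 (SE 0.11).

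S phase genes lay on the same side. All 27 measured were positive, against 54.7% of all genes, with a median of 0.34, or 0.23 without WT replicate 2. Of the 27, 0 were called, against 0.0721% of all genes. At an unadjusted limma p under 0.05, 11 were higher and 0 lower in cKO cells, against 5.03% and 3.08% of all genes. Groups did not overlap for 9, all higher, against 7.96% of all genes higher and 5.32% lower. WT replicate 2 was the lowest array for 21, against 23.0% of all genes. The genes named next had the lowest limma p of the list. Tk1, which makes thymidine monophosphate, had 9.08, 9.30 and 9.01 in cKO cells, against 8.72, 8.36 and 8.76 in WT cells, with the groups apart by 0.52 (SE 0.14, limma adjusted p = 0.391). Cdc45, of the replicative helicase, was apart by 0.46 (SE 0.13) and Ccna2, the S and G2 cyclin, by 0.76 (SE 0.26), with 0.35 and 0.45 without WT replicate 2.

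By array, the median of the clustered genes' deviations from their own means was 0.377, 0.040 and 0.017 in cKO cells, against 0.059, -0.337 and -0.007 in WT cells. That of the S phase genes was 0.069, 0.352 and 0.143 in cKO cells, against -0.199, -0.423 and 0.099 in WT cells. Both were lowest on WT replicate 2, but the histone genes were highest on cKO replicate 1 and the S phase genes on cKO replicate 2. The variants' medians were 0.166, 0.043 and -0.047 in cKO cells, against 0.095, -0.104 and 0.078 in WT cells. The part of cell cycle stage in the histone values was not tested.

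**Figure D5:**
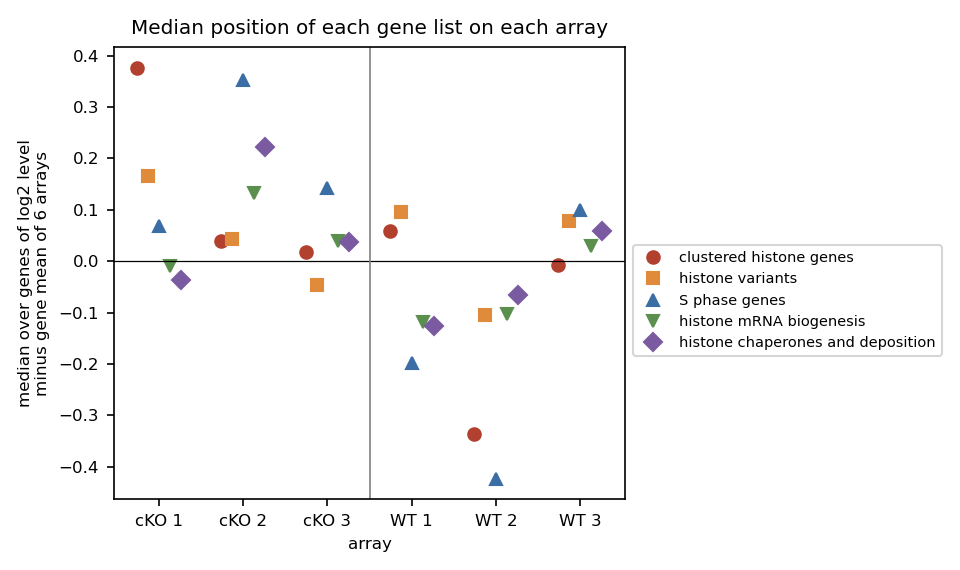
Median over each gene list of the log2 level minus the gene's mean, for each array, cKO left of WT. The clustered histone genes are at 0.377 on cKO 1 and -0.337 on WT 2, and the S phase genes at 0.352 on cKO 2 and -0.423 on WT 2.

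Markers of other cell types were measured on the same arrays. The 11 measured plasma and B cell markers had mean levels of 8.33, 8.41 and 7.75 in cKO cells, against 9.26, 8.90 and 8.30 in WT cells, with a median difference of -0.64 and all 11 negative. Neutrophil and macrophage markers, 10 of 10 measured, had mean levels of 7.18, 7.04 and 6.67 in cKO cells, against 8.15, 7.01 and 7.72 in WT cells, with a median difference of -0.45. T and NK cell markers, 9 of 9 measured, had a median of -0.07, and 3 of 8 erythroid markers were measured, with a median of -0.13. None of these markers was called. The levels of all 4 lists overlapped between cKO and WT cells. In WT cells the plasma and B cell level was highest on replicate 1 and the neutrophil and macrophage level lowest on replicate 2. Their part in the histone values was not tested.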

How the data were processed

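RNA was measured on 6 Affymetrix Gene ST arrays. Total RNA was extracted with Trizol and labelled with biotin, per the labels' protocols; the sources used here do not say whether the labelling captured transcripts without a poly(A) tail. The values were deposited as log2 summaries of probe sets, made by the authors with RMA and the R package oligo, per the submitters' processing notes. RMA normalizes arrays by quantiles and compresses differences of dim probe sets. The sources used here give no genome build or annotation release.

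Of 41345 probe sets 23521 carried 1 symbol in GEO's platform annotation, 1814 several and 16010 none here. Each of 22180 genes took its single-symbol probe set with the highest mean. Near-identical histone genes can share probes, so single-gene values are uncertain. The groups were compared with limma 3.58.1 (lmFit, eBayes, default settings, group as the only term) in R 4.3.3, with Benjamini-Hochberg adjustment over all genes and a threshold of 0.05. Shared probe sets took p-values from a fit over all probe sets. SDs and SEs rest on 3 arrays a group, and their number limits the precision. The fit was tested on simulated data.

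Older histone symbols came from RefSeq synonyms, GRCm38.p6. Named genes were Ctcf, in each clustered class the brightest and the 3 largest differences among genes above the median, the variants above it, Slbp, Npat, the H2A.Z, H2AX and H3.3 genes, and the 3 lowest p-values of each pathway list; further members named were chosen after their values were seen. The members, lists and motif letters were chosen with earlier results of these data known. Alternatives were other eBayes settings, array weights, normalization and probe set rules, a replicate block and each array left out.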

Additional observations from a re-analysis of the deposited data

How the results depend on the processing

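No histone member was called in any of 15 fits, where the lowest adjusted p per fit by limma lay between 0.247 and 0.714. The limma count of 16 called genes was 26 at an adjusted p under 0.1, 25 with trend and robust settings, 3 over all probe sets and 7 with the replicate block; it ranged from 0 to 8 with an array left out, with 0 without cKO replicate 1 (1725 genes at an unadjusted p under 0.05). Deviations of same-numbered arrays correlated at r of 0.294, 0.016 and -0.140, and those of other cKO and WT pairs at -0.248 to 0.254. Deviations from means of only 3 arrays cannot show whether same-numbered samples were paired. Leaving out each array gave medians of 0.11 to 0.38 for the clustered genes, the lowest without WT replicate 2. The range was 0.17 to 0.32 for H1, -0.0063 to 0.39 for H2A, 0.16 to 0.59 for H2B, 0.02 to 0.23 for H4, 0.11 to 0.38 for the Hist1 cluster, -0.0025 to 0.55 for the Hist2 cluster and 0.01 to 0.13 for the variants. With only brighter genes H1 had 0.30 and H4 0.51, centring gave H1 0.17 and the variants -0.01, and all probe sets gave H2B 0.16 and H4 -0.0019 with 7 of 14 positive. In this all-probe-set alternative, sets with identical values were each counted. Pathway list medians ranged from 0.07 to 0.18 for mRNA biogenesis, 0.05 to 0.21 for chaperones and 0.23 to 0.48 for S phase with an array left out. Of 338 alternative values for 26 single genes 324 kept their direction and 14 reversed. H1f10 was -0.068 and Macroh2a1 0.013 with array weights, and H2aj was -0.037 with centring and -0.030 with quantile normalization. With an array left out H1f10 ranged from -0.25 to 0.26, H2ac21 from -0.013 to 0.90, H2aj from -0.085 to 0.14, H2al2a from -0.17 to 0.018, H4c12 from -0.027 to 0.17 and Macroh2a1 from -0.10 to 0.094. The cause of these moves was not tested. The all-probe-set alternative was not run for single genes. The alternatives for the pathway lists, and the shared sets without WT replicate 2, were chosen after seeing the data.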
